A study of Rattus norvegicus with 84 samples.

Results

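The mRNA cargo of extracellular vesicles (EVs) isolated from rat brain was compared between rats given human neural stem cells (hNSCs group) and rats given saline (control group) at 10 days poststroke. The members are the 6 brain-derived EV mRNA libraries that the sample labels assign to those groups at that time, 3 rats in each group, of 84 libraries in the series. All 6 animals were wild type, adult male Sprague-Dawley rats aged 8 to 12 weeks, in which the right middle cerebral artery had been occluded for 90 min. On day 3 poststroke, 200000 hNSCs or saline were injected into the common carotid artery, so that both groups had gone through the occlusion and the second operation. The hNSCs came from a single line of fetal human telencephalon, and EVs were prepared from the frozen ipsilateral hemisphere. Reads were counted on the rat annotation, and transcripts of the grafted human cells were not separated. Used for reference are the healthy rats without stroke and the hNSCs and control groups at 4 and 31 days.

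EVs are membrane-bound particles that neurons, glia, endothelial cells and blood cells release, and they carry fragments and full copies of the RNA of the cell of origin. In brain tissue the recovered particles can include those of synaptic and myelin membranes as well as those of activated microglia. After a stroke, microglia and astrocytes take on reactive states, and transcripts for iron storage, lysosomal digestion and lipid transport are abundant in phagocytic cells. The cell of origin of the EVs was not tested here. Neural stem cells delivered through an artery are known for effects on inflammation and tissue repair, and the comparison asks whether EV mRNA of the treated hemisphere differed from that of the untreated one.

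Most of the counts in these libraries did not belong to annotated genes. The 5 most abundant unannotated transcripts, listed as new genes in the deposited tables, took 77.5 to 90.2% of all counts in the 6 libraries. The first 30 bases of 3 of them are shown because these transcripts decide how many counts are left for mRNA. They are in lower case throughout, since no part of them is singled out.
Rat_newGene_47911: ggggggggtgtgtgtgccggtgccgcgggt
Rat_newGene_36107: ctcagattaccgatacgactcttagcggtg
Rat_newGene_1: attaattggaggtaagattacacatgcaaa
The first of these is 5098 nt long with 66.5% G and C, and it alone held 35.2, 47.3 and 52.2% of all counts in the control libraries and 32.6, 53.0 and 58.4% in the hNSCs libraries. Rat_newGene_36107 is 2801 nt long and held 11.4, 8.66 and 9.98% in the control group and 9.63, 10.1 and 13.9% in the hNSCs group. Rat_newGene_1, 15659 nt long with 38.7% G and C, held 6.47, 6.09 and 6.23% in the control group and 5.96, 0.315 and 3.62% in the hNSCs group. Its share was thus low in the second hNSCs library. The transcripts were not matched to a reference and are called by their deposited names.

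Total counts were 13221461 to 19228925 per library, and annotated genes received 2317700, 2258483 and 1500439 of them in the control group and 2955945, 1123445 and 569136 in the hNSCs group. The annotated share was 12.1, 13.4 and 11.3% in the control group and 16.9, 8.04 and 3.18% in the hNSCs group, so that the hNSCs values lay on both sides of the control values. Wilson 95% intervals of these shares were at most 0.0351 percentage points wide, and they cover counting error only. The group means were 12.3% ± 1.03 and 9.36% ± 6.94 (SD, n = 3 each), a difference of -2.90 percentage points that did not exceed the spread between libraries (two-sided exact permutation test, p = 0.6, where 0.1 is the smallest value that 3 against 3 libraries allow). Over all 21 brain libraries the share ran from 3.18 to 51.9%, and the third hNSCs library at 10 days was the lowest.

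The number of annotated genes with a count was 12856, 11989 and 10698 in the control group and 12293, 8662 and 6190 in the hNSCs group. After every library had been thinned to the 569136 annotated counts of the smallest, the control libraries held 12491, 11705 and 10508 genes and the hNSCs libraries 11864, 8569 and 6190. The first hNSCs library stayed among the controls, and the other hNSCs libraries held fewer genes than any control library at equal counts. As deposited, 197 genes had counts in all 3 control libraries and in no hNSCs library, and 2 genes had the opposite pattern. The same totals of 197 and 2 were found after thinning. Correlations of log2 CPM between libraries of a group, across genes, which are not independent replicates, were 0.66 to 0.76 in the control group and 0.65 to 0.72 in the hNSCs group. CPM here are counts scaled to the annotated counts of a library after TMM normalization, and they compare a gene between libraries, not one gene with another.

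**Figure D1:**
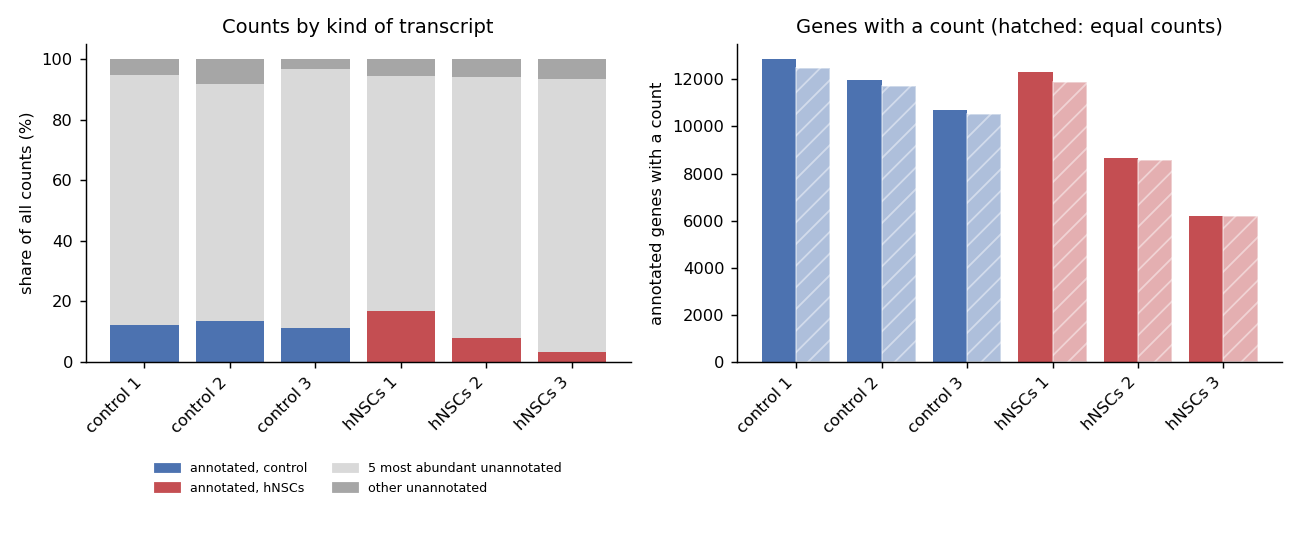
Share of all counts by kind of transcript (left, %) and number of annotated genes with a count (right; solid bars as deposited, hatched bars after thinning to equal annotated counts) in the 3 control (blue) and 3 hNSCs (red) brain-derived EV libraries at 10 days. The annotated share ranges from 3.18 to 16.9% in the hNSCs group and from 11.3 to 13.4% in the control group, and the third hNSCs library holds 6190 genes.

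No gene passed the test between the hNSCs and control groups at 10 days. Of 18782 annotated genes, 14515 had enough counts to be tested with edgeR's quasi-likelihood test, and 0 of them (0%) met both limits set for a call, a fold change above 1.5 and a Benjamini-Hochberg adjusted p below 0.05. The smallest adjusted p was 0.116, shared by 11 genes. At an unadjusted p under 0.05, 376 genes (2.59%) were higher and 1569 (10.8%) lower in the hNSCs group. Of the 1569, 869 had no counts in any hNSCs library, and of the 376, 170 had none in any control library. The 3 hNSCs values lay above the 3 control values in 234 genes (1.61%) and below them in 1025 genes (7.06%). DESeq2 called 55 genes higher and 596 lower, 358 of the latter without counts in the hNSCs group, and limma-voom called 0 higher and 37 lower, 22 of them without counts in the hNSCs group.

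The call depended on single libraries. Without the first hNSCs library, which had the most annotated counts, the edgeR test called 15 genes higher and 718 lower (0.101 and 4.82% of those tested), and without the first control library 5 higher and 35 lower (0.0336 and 0.235%). The 5 higher ones were Tmod2, Rgs6, Ccdc85b, Lpin3 and Scn1a. Leaving out any other of the 6 libraries gave 0 calls. Without the second control library and the third hNSCs library together, 0 genes were called and those with an unadjusted p under 0.05 numbered 371 higher and 670 lower (2.5 and 4.51%).

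The median log2 fold change over all tested genes was -0.34, and it was -0.33 with genes absent from a group set at their bound. Scaling to all deposited counts moved this median by a further -0.19, to -0.53, and the share of lower genes among those with an unadjusted p under 0.05 from 80.7% to 90.4%. Differences below are therefore to be read against these medians. They are also to be read against genes of like abundance, as the bins by CPM below differ in their medians. The median also moved with single libraries, to -0.72 without the first hNSCs library, to -0.12 without the third, and to -0.18 without the first or the second control library. In 4 equal bins of genes ranked by mean CPM from low to high, the median log2 fold change was -0.95, -1.001, -0.36 and 0.02. In 4 bins ranked by the reads behind 1 FPKM unit, which grow with transcript length, it was -0.92, -0.42, -0.23 and -0.13 from short to long. Without the second control library the same bins had -0.05, -0.72, -0.27 and -0.02 by CPM and -0.17, -0.22, -0.21 and -0.18 by length, so that the order by length was not seen.

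**Figure D2:**
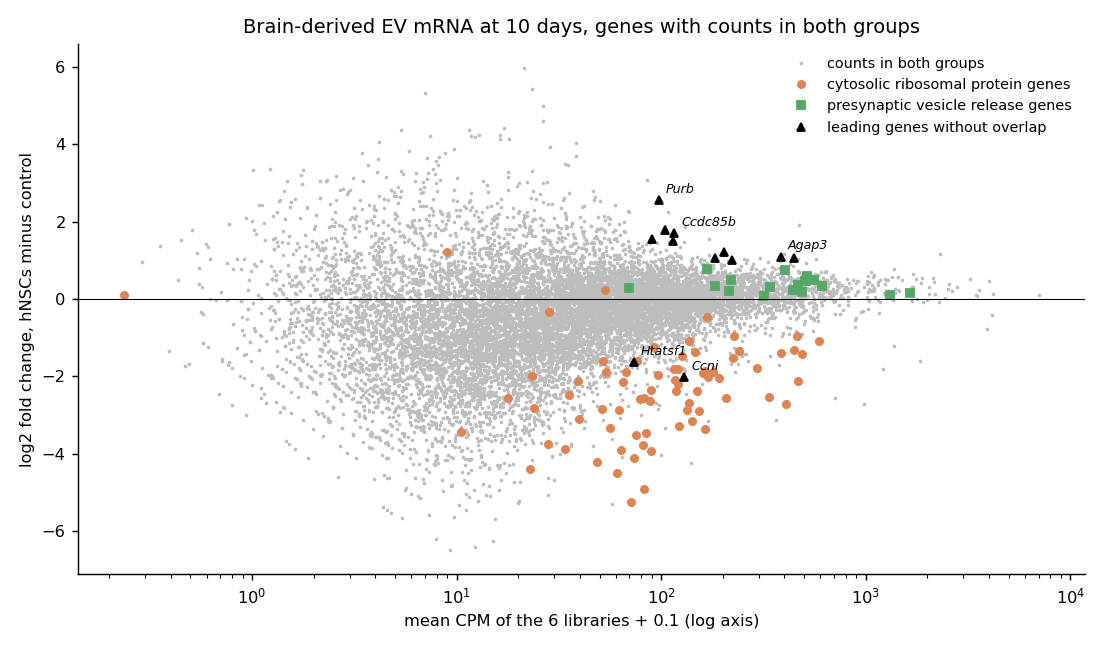
Log2 fold change of the hNSCs group over the control group (vertical axis) against mean CPM of the 6 libraries (horizontal axis, log scale) for genes with counts in both groups, 10 days poststroke. The cloud of low-abundance genes (grey) lies mostly below 0, cytosolic ribosomal protein genes (orange) lie almost all below 0 and the 17 presynaptic genes (green) just above it; black triangles are the leading genes whose libraries did not overlap.

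Among genes higher in the hNSCs group, Ccdc85b, which encodes a coiled-coil protein of cell junctions, had the smallest p of those whose libraries did not overlap. It stood at 69.9, 58.3 and 33.9 CPM in the control group and at 169, 181 and 182 CPM in the hNSCs group. All 3 hNSCs libraries were above all 3 controls, and they agreed closely with each other. The log2 fold change was 1.71 ± 0.36 (SE, n = 3 each; edgeR quasi-likelihood test, Benjamini-Hochberg adjusted p = 0.116). The healthy libraries held 253, 194 and 153 CPM, so the hNSCs values lay within their range and the control values below it. At 4 days its CPM was 76.9, 80.4 and 110 in the control group and 77.2, 137 and 176 in the hNSCs group, and at 31 days 97.2, 121 and 138 against 103, 139 and 140. The groups overlapped at both of those times. The difference between the effects at 10 and 4 days was 1.16 on the log2 scale (edgeR interaction term, Benjamini-Hochberg adjusted p = 0.477), and between 10 and 31 days 1.61 (adjusted p = 0.783).

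Ccdc136, another coiled-coil gene, stood at 391, 191 and 287 CPM in the control group and at 551, 611 and 639 CPM in the hNSCs group, a log2 fold change of 1.05. Apba2, which encodes a neuronal adaptor that binds the amyloid precursor protein, stood at 150, 69.9 and 137 CPM against 244, 246 and 256 CPM, a log2 fold change of 1.06. In both genes the hNSCs libraries lay close together and apart from the controls. Ampd2, an AMP deaminase of purine metabolism, stood at 70.3, 29.4 and 79.8 CPM against 125, 178 and 203 CPM (log2 fold change 1.49).

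In other genes of this group the separation was narrow or rested on 1 or more high libraries. Slc12a2, the sodium-potassium-chloride cotransporter that sets cell chloride, stood at 146, 107 and 116 CPM in the control group and at 153, 315 and 384 CPM in the hNSCs group, and Kdm3a, a histone lysine demethylase, at 52.0, 16.3 and 72.5 CPM against 76.7, 214 and 191 CPM. The first hNSCs library was the lowest of its group in both. Agap3, a GTPase-activating protein for Arf, stood at 272, 199 and 261 CPM against 395, 288 and 885 CPM, with the third hNSCs library far above the others. Purb, which binds purine-rich nucleic acid, had the largest fold change of these 10 genes, 2.56 ± 0.81 on the log2 scale (SE, n = 3 each), with 22.2, 25.2 and 37.2 CPM in the control group and 99.4, 146 and 253 CPM in the hNSCs group. Sympk, a scaffold of pre-mRNA cleavage and polyadenylation, and Dennd6a, a Rab exchange factor, completed the 10 with log2 fold changes of 1.00 and 1.54. The adjusted p of the 9 genes after Ccdc85b was 0.231 to 0.283 (edgeR quasi-likelihood test, Benjamini-Hochberg).

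**Figure D3:**
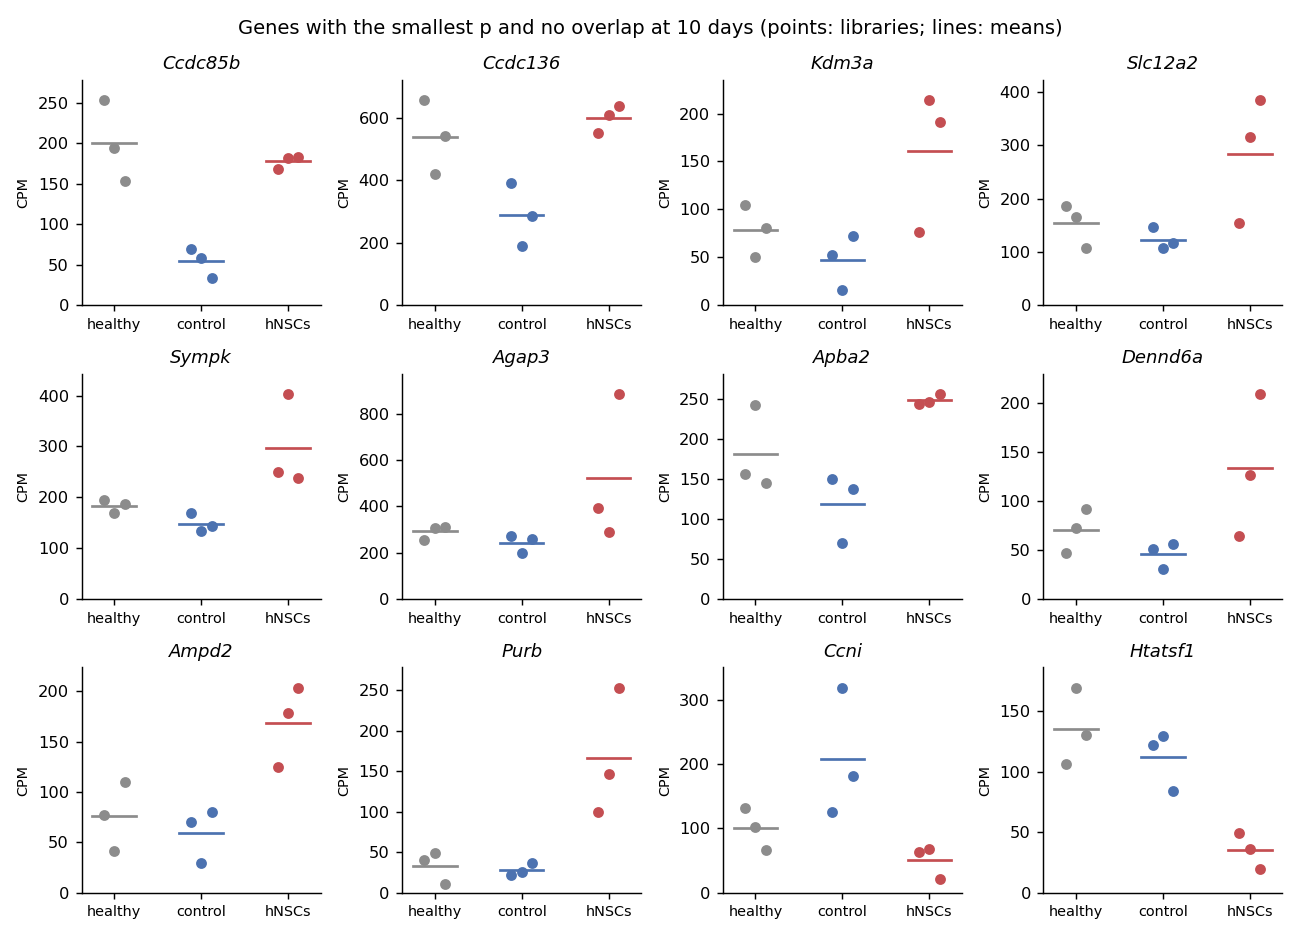
CPM (vertical axes, linear from 0) of 12 genes in the healthy, control and hNSCs brain-derived EV libraries at 10 days; points are libraries and lines are means of 3. Ccdc85b stands at 169 to 182 CPM in the hNSCs group and at 33.9 to 69.9 CPM in the control group, and Ccni and Htatsf1, the last panels, are lower in every hNSCs library than in any control library.

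Of the 10 leading genes lower in the hNSCs group, 2 had counts in both groups. Ccni encodes cyclin I, a cyclin that is abundant in postmitotic cells, and stood at 126, 318 and 182 CPM in the control group and at 63.9, 67.4 and 21.1 CPM in the hNSCs group (log2 fold change -2.01 ± 0.42 SE, n = 3 each; edgeR quasi-likelihood test, Benjamini-Hochberg adjusted p = 0.116). Htatsf1, a splicing factor of the U2 snRNP, stood at 122, 129 and 83.8 CPM against 49.7, 36.4 and 19.6 CPM (log2 fold change -1.63 ± 0.34 SE, n = 3 each; edgeR, adjusted p = 0.116). Neither gene overlapped between the groups. The healthy libraries held 132, 103 and 66.7 CPM of Ccni and 106, 169 and 130 CPM of Htatsf1, so that for Htatsf1 the hNSCs group was below the healthy libraries as well. At 4 days Htatsf1 was at 82.2, 77.7 and 84.0 CPM in the control group and at 72.9, 85.9 and 57.1 CPM in the hNSCs group, and the groups overlapped.

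The other 8 genes had no counts in any hNSCs library. Their control libraries held 5 to 126 counts, or 3.33 to 58.8 CPM. Slc38a7, an amino acid transporter of the lysosomal membrane, was at 8.10, 18.7 and 51.2 CPM in the control group and at least 34.8-fold lower in the hNSCs group, against a floor of 3 counts over the group. On the same floor Klhl13, an adaptor of a cullin ubiquitin ligase, was at least 27.9-fold lower, Slc25a33, a mitochondrial carrier of pyrimidine nucleotides, at least 25.1-fold lower, and Ift74, a part of the intraflagellar transport machinery of cilia, at least 63.3-fold lower. Kansl1l was at least 57.6-fold lower, the scavenger receptor gene Scara5 at least 29.5-fold, the O-glycosylation enzyme gene Galnt10 at least 43.3-fold and Prtfdc1 at least 41.2-fold. These bounds cover counting error only, and the depth of the third hNSCs library, in which 3 counts equal 4.52 CPM, limits what can be said of any single library.

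Slc38a7, Klhl13 and Slc25a33 were detected in all libraries of the other times. At 4 days Slc38a7 was at 31.2, 17.6 and 12.1 CPM in the control group and at 18.2, 32.1 and 33.1 CPM in the hNSCs group, and at 31 days at 22.1, 23.2 and 22.2 CPM against 15.7, 18.4 and 16.6 CPM. Klhl13 at 31 days was at 35.3, 23.8 and 21.3 CPM against 31.9, 37.6 and 30.8 CPM, and Slc25a33 at 16.8, 15.98 and 21.4 CPM against 12.7, 16.1 and 27.9 CPM. These 3 genes had the smallest p of the term that compares the effect at 10 days with that at 31 days. With 4 days the smallest p belonged to Slc38a7, Col24a1 and Cntnap5b. Col24a1, a fibrillar collagen gene, was at 18.0, 99.8 and 17.3 CPM in the control group and at 0 in all hNSCs libraries at 4 days, and at 36.2, 49.0 and 110 CPM against 150, 140 and 0 CPM at 10 days. Cntnap5b, of the neurexin-like contactin-associated family, was likewise at 0 in the hNSCs group at 4 days and at 79.2, 24.8 and 0 CPM at 10 days. Neither term called a gene (0% of 14515 in both), with 431 higher and 821 lower at an unadjusted p under 0.05 against 4 days (2.97 and 5.66%) and 148 higher and 757 lower against 31 days (1.02 and 5.22%).

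A set of 13 genes that the study names in its account of brain EV mRNA and its hub genes was followed, chosen by the study partly on these samples. Of the 13, 6 had a fold change above 0 and 7 below, 0 were called, and 2 had an unadjusted p under 0.05, against 2.59% of all genes higher and 10.8% lower. S100b, the calcium-binding protein of astrocytes, stood at 564, 667 and 520 CPM in the control group and at 355, 303 and 332 CPM in the hNSCs group. Its groups did not overlap, and its healthy libraries, at 310, 379 and 260 CPM, covered the hNSCs range (log2 fold change -0.82 ± 0.31 SE, n = 3 each; edgeR quasi-likelihood test, Benjamini-Hochberg adjusted p = 0.326). Prdx6, a peroxiredoxin that reduces peroxides, stood at 29.4, 146 and 41.2 CPM against 10.3, 24.8 and 40.7 CPM, and the second control library held most of the difference (log2 fold change -1.55; edgeR, Benjamini-Hochberg adjusted p = 0.336).

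Map1b and Map1a, the microtubule-associated proteins of axons and dendrites, were among the most abundant transcripts. Map1b stood at 4839, 1820 and 3220 CPM in the control group and at 4621, 3270 and 3738 CPM in the hNSCs group, and Map1a at 4903, 1774 and 3427 CPM against 4665, 4272 and 4996 CPM. The second control library was the lowest of the 6 for both, and the groups overlapped. The log2 fold change of Map1b was 0.24 and turned to -0.05 under scaling to all deposited counts, and that of Map1a was 0.46.

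Mbp, a main protein of myelin, stood at 1886, 10113 and 2886 CPM in the control group and at 1764, 3835 and 3111 CPM in the hNSCs group. Apoe, the lipid carrier of astrocytes and microglia, stood at 1875, 8071 and 4158 CPM against 1880, 5526 and 3244 CPM, and Vim, the intermediate filament of reactive astrocytes, at 124, 1138 and 274 CPM against 136, 365 and 339 CPM. In each of these 3 genes the second control library was the highest of all 6 and the remaining values overlapped. The log2 fold changes were -0.77, -0.41 and -0.88, and without the second control library and the third hNSCs library they were 0.25, 0.31 and 0.34. Snap25 (0.19), Nrgn (0.48), Camk2n1 (0.11), Park7 (-0.27), Jun (0.49) and Calr (-0.15) overlapped between the groups, and Snap25, Camk2n1 and Jun were below 0 when scaled to all counts.

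The 5 annotated genes with the highest mean FPKM, a level per length of transcript and per total reads, were LOC310926, Apoe, Ptms, Fth1 and Basp1. LOC310926 held 124, 54.7 and 174 FPKM in the control group and 91.6, 89.5 and 61.2 FPKM in the hNSCs group. Basp1, a membrane protein of growing axons, held 54.9, 41.9 and 40.4 FPKM against 68.9, 51.9 and 22.4 FPKM, and Ptms (parathymosin) 80.3, 56.6 and 51.6 FPKM against 96.5, 55.1 and 35.7 FPKM. The groups overlapped in all 3 genes, and the third hNSCs library was lowest in Basp1 and Ptms on this scale. On the CPM scale Basp1 was at 2006, 1387 and 1833 in the control group and at 1960, 2821 and 2852 in the hNSCs group, so that its order between libraries depended on the scale. Fth1, the heavy chain of the iron store ferritin, held 28.6, 238 and 30.1 FPKM against 25.2, 24.7 and 10.5 FPKM, with the second control library far above the rest.

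The second control library also stood apart in whole gene lists. Cytosolic ribosomal protein genes encode the protein part of the ribosome and are translated under joint control, and 82 of 84 passed the count filter. Their summed level was 3678, 37592 and 6997 CPM in the control group and 3109, 6032 and 3468 CPM in the hNSCs group, with 3090 to 4045 CPM in the healthy group. Of the 82, 77 were highest in the second control library, a place that 27.7% of all tested genes shared. The hNSCs libraries differed as well. Of the 84, 9, 4 and 15 had no counts in the control libraries and 19, 26 and 51 in the hNSCs libraries. The edgeR test called none of the 82 in the 6 libraries. It called 11 lower without the first hNSCs library and 7 lower without the first control library. Of all genes, 4.82 and 0.235% were called lower in those fits. DESeq2 called 24 of the 82 lower, and 596 of all 14515 genes. In the 6 libraries, 56 (68.3%) were lower at an unadjusted p under 0.05 against 10.8% of all genes. Lower values without overlap between the groups were found in 12 of the 82, against 7.06% of all genes. Their median log2 fold change was -2.50, or -2.38 with members absent from the hNSCs group at their bound, against -0.34 for all genes. Without the second control library the median was -0.44, against -0.18 for all genes. In that fit 12 of the 82 were lower at that threshold (6.46% of all genes). Without the third hNSCs library as well the median was -0.31, against -0.02 for all genes. There 10 of the 82 were lower, against 4.51% of all genes.

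Rplp1, an acidic protein of the ribosomal stalk, stood at 95.0, 1958 and 224 CPM in the control group and at 95.9, 213 and 220 CPM in the hNSCs group. Rplp0, the stalk's base, stood at 252, 1621 and 542 CPM against 221, 587 and 335 CPM, and Rpl26 at 147, 1464 and 218 CPM against 150, 321 and 473 CPM. Rpl4 stood at 274, 1332 and 518 CPM against 240, 356 and 193 CPM, with a log2 fold change of -1.43 (edgeR quasi-likelihood test, Benjamini-Hochberg adjusted p = 0.231). In each of these 4 genes 1 control library was far above the other 5 libraries, and the remaining control and hNSCs values overlapped. Ribosomal protein genes have many near-identical processed copies, so that the assignment of their reads is uncertain.

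The transcription start of these genes is shown for the 6 members with the highest mean CPM, because a short pyrimidine-rich stretch at the start is a known mark of this gene class. Windows of 30 bases, 15 on either side of the start, were taken from RefSeq sequences of build GRCr8, which is not the build of the counts, and capitals mark the motif CTTTC.
Rplp1, chr8:71290858-71290887, minus strand: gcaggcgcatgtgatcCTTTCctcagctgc
Rpl35, chr3:43165907-43165936, minus strand: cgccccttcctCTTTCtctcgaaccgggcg
Rps23, chr2:23814502-23814531, plus strand: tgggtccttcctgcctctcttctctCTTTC
Rplp0, chr12:46718376-46718405, minus strand: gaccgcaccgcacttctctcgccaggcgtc
Rpl4, chr8:73566462-73566491, plus strand: taagttcttccttttcctgtgggagcagcc
Rpl26, chr10:54109677-54109706, plus strand: ctcgtgtcaacttacagaaccggaagtcgc
Read in the direction of transcription, the motif was present in 27 of the 67 ribosomal protein promoters matched by symbol (40.3%) and in 993 of all 27457 promoters of that length (3.62%). On the other strand it was present in 1.49% of the former and 3.77% of the latter. Of the 6 windows shown, Rplp1, Rpl35 and Rps23 hold the exact motif, Rps23 at the very end of the window, and Rplp0, Rpl4 and Rpl26 do not. Only exact CTTTC was counted, anywhere in the window. Other pyrimidine-rich stretches, such as those in the Rplp0 and Rpl4 windows, were not scored. The match describes the sequence and was not used to choose the genes.

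Other lists of reactive and metabolic genes had medians below that of all genes in the 6 libraries, and these medians were closer to 0 without the second control library. Nuclear genes of oxidative phosphorylation, which encode most respiratory chain subunits, had a median of -1.43 over 74 tested, with 20 (27.0%) lower, against 10.8% of all genes, and 0 higher at an unadjusted p under 0.05. None was called by edgeR in the 6 libraries, and 13 were called lower by DESeq2 and 13 by edgeR without the first hNSCs library. In those fits 596 of all 14515 genes and 4.82% of all genes were called lower. Atp5b, a subunit of the ATP synthase, stood at 242, 400 and 224 CPM in the control group and at 147, 138 and 206 CPM in the hNSCs group, without overlap, and Cox4i1, of cytochrome c oxidase, at 32.0, 296 and 65.9 CPM against 54.0, 85.2 and 154 CPM. Without the second control library 10 of the 74 were lower at that threshold (6.46% of all genes), and the list median was -0.49.

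The lysosome list (median -1.15, 4 of 16 lower), the damage-associated microglia list (-1.48, 5 of 13), the antioxidant list (-1.42, 4 of 19) and the iron handling list (-1.04, 2 of 7) contained 0 genes called by edgeR in the 6 libraries. The members counted as lower, at an unadjusted p under 0.05, made up 25, 38.5, 21.1 and 28.6% of the lists against 10.8% of all genes. DESeq2 called 0, 1, 2 and 1 members lower, and edgeR without the first hNSCs library called 1 lysosome and 3 antioxidant genes lower, and without the first control library 1 damage-associated microglia and 1 antioxidant gene. Called lower in these fits, in that order, were 596 of all 14515 genes, 4.82% and 0.235% of all genes. Ctsd and Ctsb, the lysosomal proteases cathepsin D and B that belong to the first 2 of these lists, stood at 90.8, 1080 and 330 CPM against 91.6, 335 and 110 CPM and at 105, 879 and 214 CPM against 104, 114 and 176 CPM. Ftl1, the light chain of ferritin, stood at 96.7, 3312 and 207 CPM against 82.7, 390 and 137 CPM. For all 3 genes the first control and first hNSCs libraries were close to each other and the second control library stood apart. Gpx1 and Gpx4, the glutathione peroxidases, stood at 18.7, 655 and 133 CPM against 36.6, 0 and 0 CPM and at 35.8, 150 and 39.9 CPM against 31.3, 13.3 and 0 CPM. Only Gpx4 did not overlap among these 5. Without the second control library the medians of the 4 lists were -0.12, -0.30, -0.20 and 0.18, and 0, 1, 1 and 0 members were lower at an unadjusted p under 0.05 (6.46% of all genes). Proteasome genes (-1.16, 7 of 37 lower), histone genes (-0.998, 7 of 39) and interferon response genes (-1.16, 3 of 17) also had medians below that of all genes in the 6 libraries, and without the second control library these were -0.18, 0.24 and -1.15. The lower members were 18.9, 17.9 and 17.6% of these lists, against 10.8% of all genes. DESeq2 called 5, 4 and 0 members lower, and 596 of all 14515 genes.

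**Figure D4:**
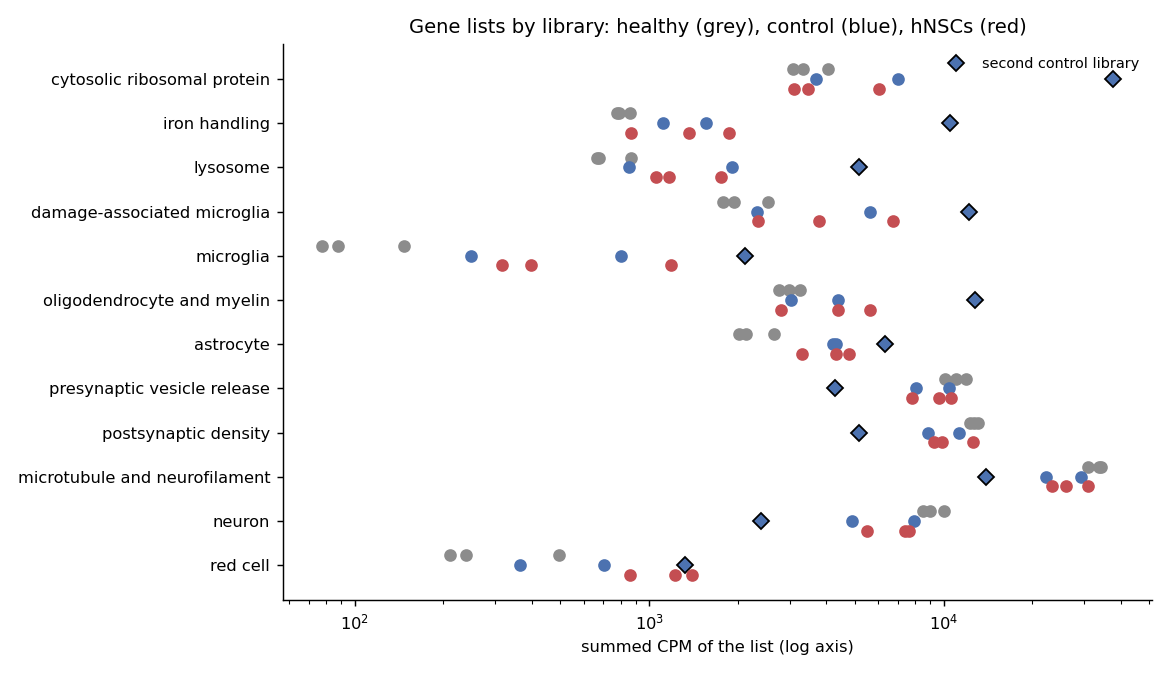
Summed CPM (horizontal axis, log scale) of 12 gene lists in each healthy (grey), control (blue) and hNSCs (red) brain-derived EV library, with the second control library at 10 days as a diamond. Ribosomal protein genes sum to 37592 CPM in that library and to 3090 to 6997 CPM in the other 8, and the synaptic and neuron lists are lowest in that library.

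Several lists of neuronal genes had medians above 0, with small differences, and others did not. The medium spiny neuron list, of striatal projection neurons, had a median of -1.40 with 8 of 9 tested members below 0, and -1.18 without the second control library. Genes of GABAergic neurons had a median of -0.29, or 0 with members absent from a group at their bound, with 4 of 7 below 0, and those of glutamatergic neurons one of 0.48, with 9 of 10 above 0. Of 54 voltage-gated channel genes tested, 25 were above and 26 below 0. The signs of the fold change over all genes were not counted beside those of any list. In the highest of the 4 bins by CPM, which began at 66.5 CPM, the median of all genes was 0.02. All 17 presynaptic vesicle release genes had a fold change above 0, with a median of 0.32 in the 6 libraries, 0.03 when scaled to all deposited counts and 0.06 without the second control library. In the 6 libraries none was called by edgeR, 0 had an unadjusted p under 0.05, and 1 was higher without overlap between the groups (1.61% of all genes). Without the first control library the median was 0.68 and 10 of the 17 were higher at that threshold (4.84% of all genes). The gene without overlap was Syn1, which tethers synaptic vesicles, at 544, 233 and 508 CPM in the control group and 552, 628 and 576 CPM in the hNSCs group. Bsn, a scaffold of the presynaptic active zone, stood at 1826, 1024 and 1854 CPM against 1676, 1628 and 1890 CPM and overlapped. The summed level of the list was 10462, 4287 and 8035 CPM in the control group and 10557, 7806 and 9630 CPM in the hNSCs group, so that the second control library was the lowest.

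Of the 19 postsynaptic density genes, 16 had a fold change above 0, with a median of 0.14 that was -0.05 when scaled to all counts, and the median of 21 microtubule and neurofilament genes was 0.25, or -0.01 on that scale. Shank1, a scaffold of the postsynaptic density, stood at 1746, 1009 and 1842 CPM in the control group and at 2390, 2453 and 1887 CPM in the hNSCs group without overlap (log2 fold change 0.55; edgeR quasi-likelihood test, Benjamini-Hochberg adjusted p = 0.364). It was -0.0396 in limma on log2(FPKM + 0.1). Camk2a, the calcium-dependent kinase of excitatory synapses, stood at 834, 287 and 523 CPM against 1102, 772 and 585 CPM, and Gad1, the enzyme that makes GABA, at 151, 37.8 and 39.2 CPM against 132, 167 and 145 CPM. Both overlapped between the groups, and the GABAergic list that holds Gad1 had the median of -0.29 given above.

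**Figure D5:**
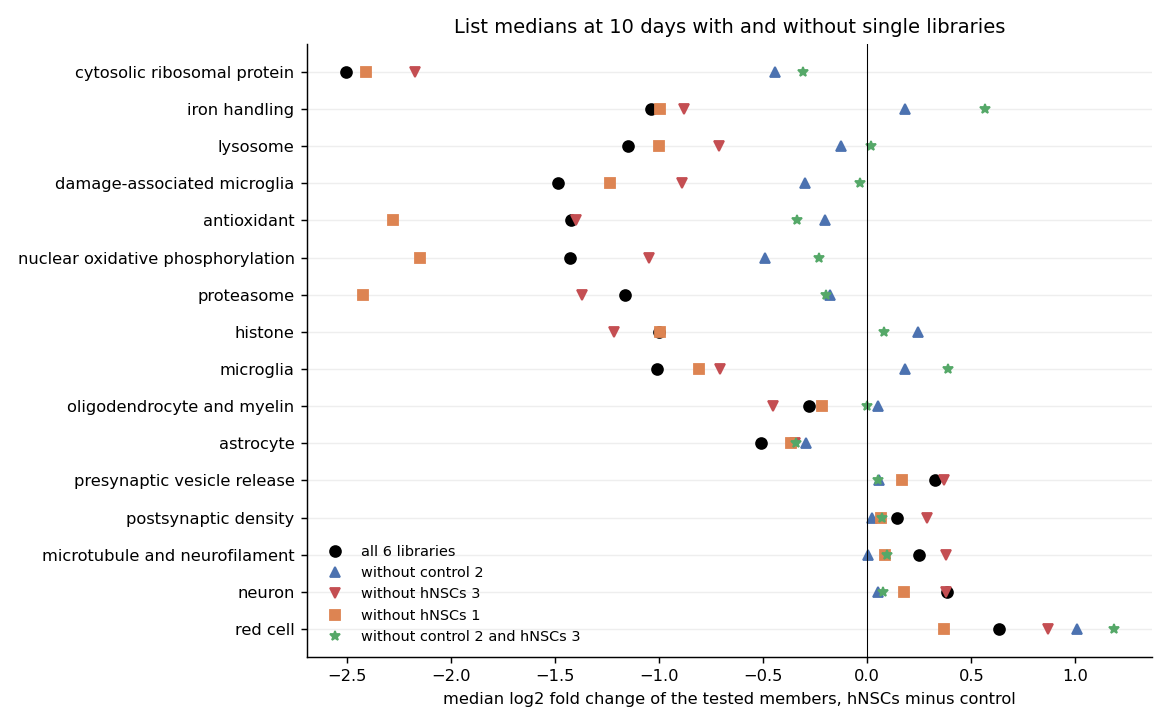
Median log2 fold change of the tested members of 16 gene lists, hNSCs minus control at 10 days (horizontal axis), in all 6 libraries (black) and with 1 or 2 libraries left out (coloured). The ribosomal median moves from -2.50 to -0.44 without the second control library, and the presynaptic median from 0.32 to 0.06.

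Cell type markers were read in the same way, as the EVs of a hemisphere come from many cell types. In such material fewer vesicles of a type and less RNA per vesicle cannot be told apart. The labelled tissue is brain, and all 12 neuron, 10 astrocyte and 10 myelin markers passed the count filter. The 12 neuron markers summed to 7913, 2406 and 4881 CPM in the control group and 7602, 5475 and 7372 CPM in the hNSCs group (median log2 fold change 0.38, and 0.02 when scaled to all counts). Gfap, the intermediate filament of astrocytes, stood at 1563, 3014 and 2464 CPM against 1598, 2709 and 2347 CPM, and the groups overlapped throughout (log2 fold change -0.08). The 10 astrocyte markers had a median of -0.51 with 7 below 0, and 3 of the 10 were lower at an unadjusted p under 0.05 against 10.8% of all genes. The median was -0.29 and 1 of the 10 was lower without the second control library (6.46% of all genes). Microglia markers summed to 248, 2110 and 803 CPM in the control group and 317, 1187 and 398 CPM in the hNSCs group. Their median log2 fold change was -1.01, and 0.18 without the second control library. In the 6 libraries 1 of 12 (8.33%) was lower at an unadjusted p under 0.05, against 10.8% of all genes. Csf1r, the growth factor receptor of microglia, stood at 56.2, 345 and 166 CPM against 127, 160 and 101 CPM, and C1qc, of complement C1q, at 46.4, 268 and 121 CPM against 23.4, 153 and 107 CPM.

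Blood and vessel markers were also measured. Hba2 and Hba1, the alpha globin genes of red cells, stood at 342, 535 and 179 CPM in the control group against 690, 626 and 422 CPM in the hNSCs group and at 287, 519 and 126 CPM against 564, 422 and 380 CPM. Both genes overlapped between the groups, and the reads of these near-identical copies may have been divided between them. The summed red cell markers were 705, 1321 and 363 CPM in the control group, 1403, 1222 and 861 CPM in the hNSCs group and 210 to 496 CPM in the healthy group. Acta2, the smooth muscle actin of vessel walls, stood at 28.6, 57.4 and 4.66 CPM against 3.55, 0 and 0 CPM, and 3 of 6 tested pericyte and smooth muscle markers were lower at an unadjusted p under 0.05, with a median of -1.502. Of all genes 10.8% were lower at that threshold. Without the second control library the median was -0.33 and 1 of 6 was lower (6.46% of all genes). Of the endothelial markers, 0 of 10 tested were lower at that threshold in the 6 libraries (median -0.81). Of the angiogenesis and blood-brain barrier genes, 0 of 17 were lower (median -0.78). Clic6, a chloride channel family gene of the choroid plexus, stood at 80.1, 29.8 and 57.9 CPM against 102, 96.7 and 413 CPM without overlap. Of the 9 ependymal and choroid plexus markers tested, only Clic6 was higher without overlap, against 1.61% of all genes. Their median was 0.27, with 2 of 9 higher at an unadjusted p under 0.05 (2.59% of all genes). Of the 9, 4, 4 and 5 had no counts in the control libraries and 3, 5 and 6 in the hNSCs libraries. Of the T cell markers 0 of 5 had enough counts to be tested, and of the liver, platelet and neutrophil markers 1, 2 and 1 did. No mitochondrially encoded gene was in the annotated table.

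The healthy group gave a common reference, and since the same 3 healthy libraries enter both contrasts the values are given side by side only. Against healthy rats, the control group at 10 days had 78 genes called higher and 5 lower (0.537 and 0.0344% of 14515), and the hNSCs group 6 higher and 5 lower (0.0413 and 0.0344%; edgeR quasi-likelihood test). The second control library was the highest of its group in 65 of the 78, and in 5425 of all 14515 tested genes. In 57 of the 78 all 3 hNSCs libraries were also above all 3 healthy libraries. The 78 were chosen in part for low healthy values, which favours that order. It was not counted over all genes, so nothing is drawn from it. In 2 of the 78 all 3 hNSCs libraries were below all 3 controls, against 7.06% of all genes. The median log2 fold change of the 78, which were chosen on the control and healthy libraries, was 3.68 in the control group and 2.30 in the hNSCs group. Gfap stood at 695, 504 and 571 CPM in the healthy group and was called in both, with a log2 fold change of 1.99 in the control group (edgeR, Benjamini-Hochberg adjusted p = 0.0129) and 1.91 in the hNSCs group (adjusted p = 0.0300).

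The 5 genes called lower in the control group were Ccdc85b, Trim44, Bex2, Stmn3 and the synaptic vesicle gene Syp, of which all but Ccdc85b are named here after their values were seen. Ccdc85b had a log2 fold change of -1.88 against healthy in the control group (edgeR, Benjamini-Hochberg adjusted p = 0.0193) and -0.17 in the hNSCs group (adjusted p = 0.899). Stmn3, a stathmin that destabilizes microtubules in neurons, stood at 194, 124 and 110 CPM in the control group and at 268, 235 and 347 CPM in the hNSCs group, and its log2 fold changes against healthy were -1.90 and -0.91. Trim44 stood at 320, 180 and 177 CPM against 564, 295 and 463 CPM, with -2.04 and -1.07 against healthy, and Bex2 at 134, 63.9 and 69.2 CPM against 211, 99.4 and 125 CPM, with -2.08 and -1.37. Stmn3 and Ccdc85b did not overlap between the hNSCs and control groups, and Trim44 and Bex2 did. Of all genes, 1.61% were higher in the hNSCs group without overlap. These genes were chosen for low control values against healthy, which by itself favours hNSCs values above the controls and nearer to healthy. The 5 genes called lower in the hNSCs group against healthy were Slc38a7, Klhl13 and Slc25a33, which had no counts there, Htatsf1 (-1.91; edgeR, Benjamini-Hochberg adjusted p = 0.0300) and Anp32e, a histone chaperone gene also chosen after its values were seen, at 104, 121 and 86.5 CPM in the control group and 55.4, 32.8 and 67.8 CPM in the hNSCs group. Spp1 (osteopontin), made by phagocytic microglia and chosen in the same way, was at 0 in all healthy libraries, at 20.0, 693 and 197 CPM in the control group and at 12.1, 89.6 and 0 CPM in the hNSCs group.

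The other times and the plasma of the same groups were set beside the 10-day comparison. In brain-derived EVs, hNSCs against control gave 0 called genes at 4 days, with 287 higher (1.98%) and 806 lower (5.55%) at an unadjusted p under 0.05, and 0 at 31 days, with 3 higher (0.0207%) and 10 lower (0.0689%). The annotated share differed by -7.82 percentage points at 4 days (exact permutation test, p = 0.1) and by 0.99 points at 31 days (exact permutation test, p = 1). The ribosomal protein list had medians of -0.12 at 4 days and -0.06 at 31 days, against -2.50 at 10 days, or -0.44 there without the second control library. Against healthy its median was 2.43 in the control group at 10 days and -0.14 in the hNSCs group. In plasma-derived EVs at 10 days, 0 of 14720 genes were called, with 559 higher (3.8%) and 39 lower (0.265%) at an unadjusted p under 0.05, while DESeq2 called 1078 higher and 64 lower and limma-voom 31 and 0. Ccdc85b, Ccni and Htatsf1 had log2 fold changes of -0.15, 0.35 and -0.14 in plasma, and the ribosomal protein list a median of -0.05.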

How the data were processed

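RNA of EVs was made into libraries with a stranded total RNA kit and sequenced as paired ends. The authors mapped reads to the rat genome (Rnor_6.0) using Bowtie2, and FPKM values were calculated with StringTie. The deposited counts are whole reads per gene without normalization, and the deposited FPKM values are the authors' length-scaled levels. The counting tool, its strand setting and the versions of the mapping and quantification tools are not given in the sources used here, so whether antisense reads were kept apart is not known.

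Groups were taken from the sample labels. Annotated genes of the 21 brain mRNA libraries (7 groups of 3) were fitted in 1 model with edgeR 4.0.16 in R 4.3.3 (TMM, filterByExpr, quasi-likelihood test). A call needed a fold change above 1.5 and a Benjamini-Hochberg adjusted p below 0.05. P-values and SE of edgeR rest on the spread between the 3 rats within a group. That spread was estimated over all 7 groups of the fit, not over the 2 compared groups alone. Differences between times were interaction terms, and plasma had its own fit. Members and gene lists were chosen with earlier results of these data known. Named genes were the 10 higher and 10 lower with the smallest p and no overlap, genes the study names, the 5 with the highest mean FPKM, 3 per interaction term and up to 4 abundant members of each list, beside those stated. Alternatives used DESeq2 1.42.0, limma 3.58.1, limma on log2(FPKM + 1) or log2(FPKM + 0.1) with an FPKM filter of 1, other scalings, filters and covariates, and each library left out. Scripts were tested on simulated data. Replicate numbers were not used to pair the samples. Tables of miRNA were not used here.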

Additional observations from a re-analysis of the deposited data

How the results depend on the processing

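The 0 calls at 10 days became 651 with DESeq2, which gave no adjusted p for 1254 genes, 37 with limma-voom and 1 with limma on log2(FPKM + 0.1), and ran from 0 to 733 with 1 library left out. The 733 came without the first hNSCs library, and 140 of them (19.1%) were also called by DESeq2 (21.5% of its 651). The 0 calls of the 10-day against 4-day term became 410 with DESeq2 and 2 without the second control and the third hNSCs library (Cntnap5b and Col24a1), and 0 to 410 with 1 library left out. Those of the 10-day against 31-day term became 224 with DESeq2 and 0 to 394. In plasma they became 1142 with DESeq2, 31 with limma-voom and 0 to 2. The difference in annotated share ran from -6.65 to 0.19 percentage points with 1 library left out. Other alternatives, scalings, no filter, thinning, only the 2 groups, the annotated share as covariate, hemoglobin genes left out and the robust fit among them, gave 0 calls at 10 days. The fit of only the 2 groups tested 10394 genes, with 42 higher and 168 lower at an unadjusted p under 0.05. Deviations from the group mean in same-numbered control and hNSCs libraries had correlations of 0.18, 0.06 and 0.0005 across genes. With 3 libraries per group these cannot decide whether the numbers pair the samples. The fit with the replicate block gave 0 calls, with 260 genes higher and 1205 lower at an unadjusted p under 0.05. The cause of these differences was not tested. In the third hNSCs library 3 counts equal 4.52 CPM, but genes well above that level elsewhere were also absent there. Col24a1, at 150 and 140 CPM in the other hNSCs libraries at 10 days, was at 0 in it.

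Of 68 named genes 28 changed sign under some alternative. With limma on log2(FPKM + 1), with or without its filter, these were Map1b (-0.21), Map1a (-0.000266), Camk2n1 (-0.454), Basp1 (-0.0656), Jun (-0.256), Ptms (-0.0979), Bsn (-0.246), LOC310926 (-0.409), Syn1 (-0.0163), Nrgn (-0.0464) and Snap25 (-0.121). With a pseudocount of 0.1 they were Map1b (-0.274), Shank1 (-0.0396), Map1a (-0.0184), Camk2n1 (-0.508), Basp1 (-0.0703), Jun (-0.528), Ptms (-0.101), Bsn (-0.395), LOC310926 (-0.411), Syn1 (-0.0595), Nrgn (-0.0686) and Snap25 (-0.141). Scaled to all counts they were Map1b (-0.0535), Camk2n1 (-0.173), Jun (-0.537), Ptms (-0.0185), Bsn (-0.261), LOC310926 (-0.614) and Snap25 (-0.159), and scaled to annotated counts Gfap (0.0122). Without the second control and the third hNSCs library, an alternative chosen after seeing the data, they were Map1b (-0.0122), C1qc (0.0651), Apoe (0.31), Jun (-0.543), Rplp0 (0.0378), Rpl26 (0.376), Vim (0.341), Gfap (0.114), Cox4i1 (0.528), Bsn (-0.137), LOC310926 (-0.719), Mbp (0.245), Snap25 (-0.374), Ftl1 (0.644), Ctsd (0.0316), Csf1r (0.391) and Calr (0.819). With the annotated share as covariate they were C1qc (0.0303), Jun (-0.111) and LOC310926 (-0.516), and with limma-voom Jun (-0.487), LOC310926 (-0.0688), Col24a1 (-0.442) and Calr (0.145). With 1 library left out, Apoe ran from -0.813 to 0.226, Bsn from -0.0962 to 0.265, C1qc from -1.12 to 0.153, Calr from -0.557 to 0.621, Camk2n1 from -0.163 to 0.451, Cntnap5b from -1.8 to 0.263, Cox4i1 from -0.943 to 0.976, Csf1r from -1.01 to 0.213, Ftl1 from -3.34 to 0.416, Gfap from -0.326 to 0.131, Jun from -0.83 to 0.97, LOC310926 from -0.315 to 0.67, Map1b from -0.0627 to 0.611, Mbp from -1.2 to 0.275, Park7 from -1.56 to 0.254, Rpl26 from -1.46 to 0.769, Rplp1 from -2.68 to 0.128, Snap25 from -0.24 to 0.99 and Vim from -1.38 to 0.478. None of these genes was called in the 6 libraries, and the cause of the sign changes was not tested.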
